A study of Mus musculus with 18 samples.

Results

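CpG-sparse regions at promoters are the intervals of the whole-genome bisulfite tables that lie on an autosome, come within 1000 bp of a transcription start of a protein-coding gene, and hold fewer than 0.04 listed CpG cytosines per bp. The CD11b table listed 17744 such regions among 411770 intervals, and the CD4 table listed 21043 among 553467. They made up 69.9% of the 25380 autosomal promoter regions in CD11b+ cells and 70.4% of the 29911 in CD4+ cells. Whole-genome bisulfite sequencing reads the share of molecules methylated at each cytosine, and the tables give 1 mean per genotype for each interval, in percent, here called the methylation level. The difference between the genotypes is given in percentage points, and a loss is the WT level minus the R878H/+ level.

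Spleen gave both cell types, CD11b+ myeloid cells by positive selection on a magnetic column and CD4+ T cells by the same means after CD11b+ cells had been removed. The WT group was Dnmt3a+/+. The R878H/+ group carried 1 Dnmt3a allele with the R878H substitution, the mouse counterpart of human DNMT3A R882H (the label writes the genotype as Dnmt3aR878/+), recombined by Vav1-iCre, a constitutive Cre active in blood cells. Per the methods of the study the mice were 8 to 10 weeks old with the sexes pooled, and for transplants the study used the name Dnmt3a+/+ both for mice with Cre and 2 normal alleles and for mice without Cre that carry the unrecombined floxed R878H allele. Which of these gave the methylation libraries is not given in the sources used here. Each genotype had 4 mice in each cell type, and the R878H/+ CD11b+ group had 6 library entries because 2 of its mice had 2 entries each. No value of a single mouse and no read depth is in the tables, so no difference below carries an error, an interval or a test across mice, and regions are not replicates of a genotype.

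DNMT3A is a de novo DNA methyltransferase: with DNMT3B it adds methyl groups to unmethylated CpG sites, while DNMT1 copies existing marks at replication. The R878H substitution reduces this activity and also interferes with the normal protein in the same complex. CpG islands, the CpG-rich promoters of housekeeping and many developmental genes, stay unmethylated in most cells, whereas CpG-poor promoters are mostly methylated and lose methylation where a tissue uses the gene.

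The following stretches show what the rule gathered, as the GRCm38 (mm10) reference of the gene's strand, 5′ to 3′, with each CpG in capitals. Each is a piece of a member of at most 300 bases, without untranslated exon. Efna1 (chr3:89278403-89278702, minus strand, intron, CD11b member) and Tiam1 (chr16:89818353-89818652, minus strand, intron, CD4 member) are from members among the 10 largest losses of their cell type. Nradd (chr9:110624453-110624752, minus strand, upstream of the start, CD4 member) had the largest mean loss of both cell types. Star (chr8:25805586-25805885, plus strand, outside genes, CD4 member) kept its level. Vav1 (chr17:57279430-57279729, plus strand, intron, CD11b member) and Pik3ip1 (chr11:3332139-3332249, plus strand, exon, CD11b member) gained methylation.
Efna1: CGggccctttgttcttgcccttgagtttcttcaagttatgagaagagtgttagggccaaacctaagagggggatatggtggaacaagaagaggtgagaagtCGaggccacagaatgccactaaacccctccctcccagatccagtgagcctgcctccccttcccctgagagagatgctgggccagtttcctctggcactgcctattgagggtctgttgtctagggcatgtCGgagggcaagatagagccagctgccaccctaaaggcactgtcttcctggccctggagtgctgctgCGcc
Tiam1: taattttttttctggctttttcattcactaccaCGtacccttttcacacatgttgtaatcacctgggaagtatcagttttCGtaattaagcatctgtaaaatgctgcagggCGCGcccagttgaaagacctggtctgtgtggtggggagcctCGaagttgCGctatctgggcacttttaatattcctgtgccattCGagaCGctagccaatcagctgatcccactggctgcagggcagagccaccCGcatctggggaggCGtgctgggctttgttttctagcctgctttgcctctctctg
Nradd: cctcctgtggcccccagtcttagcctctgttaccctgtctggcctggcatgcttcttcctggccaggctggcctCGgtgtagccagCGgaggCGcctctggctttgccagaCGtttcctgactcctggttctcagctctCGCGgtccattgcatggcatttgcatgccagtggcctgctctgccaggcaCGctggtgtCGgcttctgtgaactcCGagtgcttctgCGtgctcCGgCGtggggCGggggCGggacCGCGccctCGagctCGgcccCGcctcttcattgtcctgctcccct
Star: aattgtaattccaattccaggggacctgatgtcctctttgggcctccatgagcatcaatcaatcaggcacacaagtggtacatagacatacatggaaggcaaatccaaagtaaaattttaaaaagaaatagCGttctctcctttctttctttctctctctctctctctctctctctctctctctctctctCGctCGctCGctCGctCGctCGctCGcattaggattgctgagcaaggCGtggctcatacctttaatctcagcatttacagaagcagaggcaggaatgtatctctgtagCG
Vav1: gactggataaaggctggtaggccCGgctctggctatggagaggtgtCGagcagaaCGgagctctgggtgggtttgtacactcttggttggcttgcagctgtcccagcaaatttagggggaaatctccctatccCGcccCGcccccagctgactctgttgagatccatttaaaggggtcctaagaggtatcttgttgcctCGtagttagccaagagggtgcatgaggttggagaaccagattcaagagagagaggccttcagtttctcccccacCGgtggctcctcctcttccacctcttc
Pik3ip1: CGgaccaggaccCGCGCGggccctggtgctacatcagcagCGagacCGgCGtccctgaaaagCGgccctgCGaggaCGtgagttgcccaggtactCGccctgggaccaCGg
The Efna1 stretch holds 4 CpG dinucleotides in 300 bases and the Tiam1 stretch 10, whereas the shorter Pik3ip1 stretch holds 12, or 10.8 per 100 bases. Such a CpG-rich piece is a member because the rule counts cytosines listed in the table, not those in the sequence.

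The median length of members was 538 bp in CD11b+ cells, from 251 to 3486 bp, and 527 bp in CD4+ cells, from 251 to 2696 bp. Other promoter regions had medians of 178 and 189 bp and all autosomal intervals 504 and 497 bp, and the shortest length of a member follows from the rule. In CD11b+ cells 56.3% held exactly 10 listed cytosines, the smallest number in the table, and in CD4+ cells 53.3% did. These members do not meet the criterion of more than 10 CpGs that the study set for its differentially methylated regions. The table counts the cytosines of both strands one by one, so the threshold corresponds to 2.0 CpG dinucleotides per 100 bp. By the sequence, 69.9% of CD11b members and 75.3% of CD4 members lay below that density, with medians of 1.61 and 1.52 CpG dinucleotides per 100 bp. The label therefore holds for most members, but 830 CD11b members and 621 CD4 members held 4.0 or more dinucleotides per 100 bp and are CpG-sparse only in what was listed. The starts of 10578 genes had a CD11b member nearest to them and those of 11889 genes a CD4 member, 60.2% and 59.6% of members lay within 1000 bp of the 5′ end of a gene, and 3.84% and 3.97% were within reach of the starts of 2 or more genes. At the threshold itself, the last members inside were at Plk1 and Svil in CD11b+ cells (0.736% and 0.515% in WT, 1.90% and 0.287% in R878H/+) and at Sh2b3 and Tysnd1 in CD4+ cells (95.1% and 32.0% in WT, 85.9% and 25.1% in R878H/+). The first regions outside were at Prss40 and Ano7 in CD11b+ cells (94.0% and 76.6%, against 91.9% and 65.5%) and at Plekha6 and Lhx9 in CD4+ cells (59.1% and 6.62%, against 32.9% and 4.67%).

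Most members had less methylation in R878H/+ cells. In the CD11b table the median level over members was 72.7% in WT and 58.0% in R878H/+, and the median loss was 8.92 points, with quartiles of 5.00 and 14.8. The CD4 table had median levels of 77.6% and 63.2% and a median loss of 9.38 points, with quartiles of 5.45 and 15.2. The R878H/+ mean was the lower one in 16556 CD11b members, 93.3%, against 93.5% of all 407396 autosomal intervals of the table and 85.5% of autosomal promoter regions, and the higher one in 6.70%, against 6.48% and 14.5%. In CD4+ cells it was lower in 20200 members, 96.0%, against 95.5% of 547975 autosomal intervals and 92.4% of promoter regions, and higher in 4.01%, against 4.47% and 7.62%. The share lower at members was thus close to that of the whole tables. A loss above 20 points, which is 1 of the criteria the study set for a differentially methylated region beside the number of CpGs and a false discovery rate, was reached by 2271 CD11b members, 12.8%, against 6.94% of all autosomal intervals and 12.1% of autosomal promoter regions. In CD4+ cells 2862 members passed it, 13.6%, against 6.17% and 13.6%. Members are themselves 69.9% and 70.4% of those promoter regions, so the shares of members and of promoter regions are not independent. Of the other promoter regions, those that are not members, 10.5% in CD11b+ and 13.5% in CD4+ cells passed 20 points. The R878H/+ mean was lower in 67.2% and 83.8% of them. Intervals in which the means differed by less than 0.100 points are not in either table, so these shares describe listed intervals and not all promoters.

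**Figure D1:**
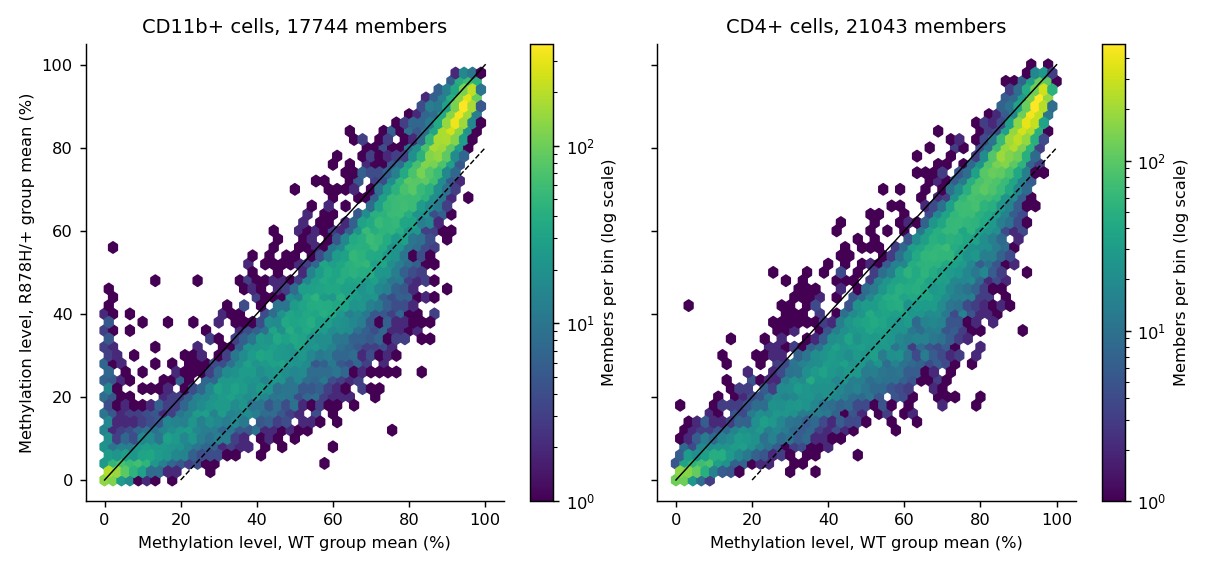
Methylation level of each member in WT (horizontal axis, %) and R878H/+ (vertical axis, %), CD11b+ cells on the left and CD4+ cells on the right, coloured by the number of members per bin on a log scale. The solid line marks equal levels and the dashed line a loss of 20 points. Most members lie below the solid line, 93.3% in CD11b+ and 96.0% in CD4+ cells and members near 0% in WT rise above it mainly in CD11b+ cells, where 156 of those under 10% gained more than 10 points, against 2 of them in CD4+ cells.

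The loss depended on where the member stood in WT cells. In CD11b+ cells the median loss was 0.412 points in the 1443 members under 10% in WT, 11.5 points between 20% and 40%, 15.1 points between 40% and 60%, 14.3 points between 60% and 80%, 8.95 points between 80% and 90%, and 5.33 points at 90% or more. In CD4+ cells the same classes had median losses of 1.14, 11.2, 15.4, 14.9, 9.67 and 5.62 points. The loss was therefore largest at members of intermediate methylation, and members near 100% kept most of theirs: 15 of 3929 CD11b members at 90% or more and 42 of 5615 CD4 members lost more than 20 points. Between 60% and 80%, 27.2% of CD11b members and 28.9% of CD4 members passed 20 points. The WT level is itself part of the difference, so these classes are a description.

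**Figure D2:**
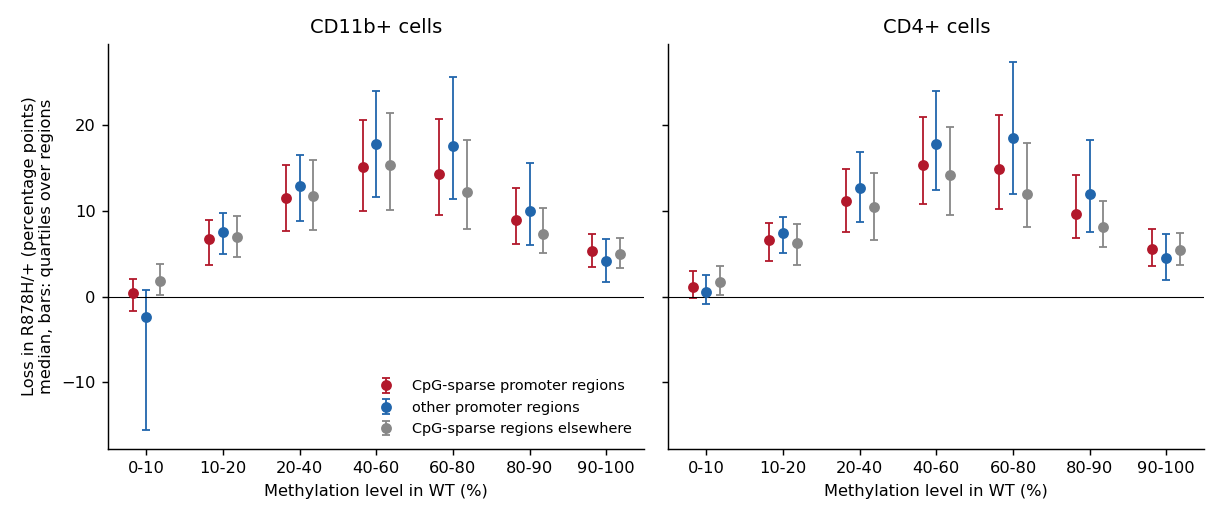
Median loss of methylation in R878H/+ (vertical axis, percentage points, bars from the lower to the upper quartile over regions) by the methylation level in WT (horizontal axis, %), for CpG-sparse promoter regions in red, other promoter regions in blue and CpG-sparse regions elsewhere in grey. Red points peak at 15.1 points in CD11b+ and 15.4 points in CD4+ cells in the 40 to 60% class, and the blue points stand above the red ones from 10 to 90%.

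Set against the other promoter regions, those with 0.04 or more listed cytosines per bp, the members lost more over all levels and less at starting levels from 10% to 90%. The other promoter regions had a median loss of 3.57 points for CD11b+ and 6.40 for CD4+ cells, which is 5.35 and 2.98 points below the members. They also started lower, at a median of 21.8% in WT CD11b+ and 49.6% in WT CD4+ cells. Between 60% and 80% in WT the order turned: the median loss was 14.3 points at members and 17.6 at the 838 other promoter regions of CD11b+ cells, and 14.9 against 18.5 points at the 1175 of CD4+ cells. At 90% or more it turned back, with 5.33 points at members against 4.20 for CD11b+ and 5.62 against 4.47 for CD4+ cells. Within genes that had both kinds of region between 60% and 80%, the CpG-sparse one had the smaller loss in 137 of 210 genes in CD11b+ cells and in 170 of 280 in CD4+ cells. CpG-sparse regions away from promoters, between 60% and 80% in WT, had median losses of 12.2 points for CD11b+ and 12.0 for CD4+ cells, below those of members. Between 40% and 60% they had 15.4 points for CD11b+ cells, against 15.1 at members, and 14.2 for CD4+ cells, against 15.4. In CD11b+ cells they also had the larger median in each class under 40%, and in CD4+ cells in the class under 10%.

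The CpG content of the sequence ordered the members too. The rule did not use it directly, but its cap on listed cytosines admits CpG-rich sequence only where few of its CpGs were listed. In CD11b+ cells the median WT level fell from 83.4% in members with under 1 CpG dinucleotide per 100 bp to 41.4% in those with 3 to 4, and to 1.33% in those with 6 or more. CD4 members went from 85.5% to 39.6% and 2.57%. Among members between 60% and 80% in WT, the median loss in CD11b+ cells was 11.6 points under 1 dinucleotide per 100 bp, 13.3 from 1.0 to 1.5, 15.4 from 1.5 to 2.0, 16.5 from 2.0 to 3.0 and 20.97 from 3.0 to 4.0, the last over 120 members. In CD4+ cells the medians were 11.8, 14.1, 15.9, 17.6 and 23.2 points. The more CpGs a member of this WT class held, the more methylation it had lost, up to 4 per 100 bp, above which there were at most 36 members in a class. GC content went the same way: in this WT class when members were cut by GC content into 4 sets of like size, the lowest set lost a median of 12.0 points in CD11b+ and 12.6 in CD4+ cells, and the highest lost 16.7 and 18.1 points. Cut likewise by the share of annotated repeat (soft-masked in the reference), the set with the least lost 16.0 and 16.3 points, and the set with the most lost 12.7 and 13.1 points. Place relative to the start made less difference: members centred within 500 bp downstream lost 15.2 and 15.8 points, and those centred more than 500 bp upstream lost 13.6 and 13.9 points. Cut by the share of their CpG cytosines that was listed, the set with the least lost 15.0 and 16.3 points, and the set with the most lost 13.6 and 14.1 points. GC content, CpG content, repeats and the share listed go together in these sequences, and their separate parts were not tested.

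**Figure D3:**
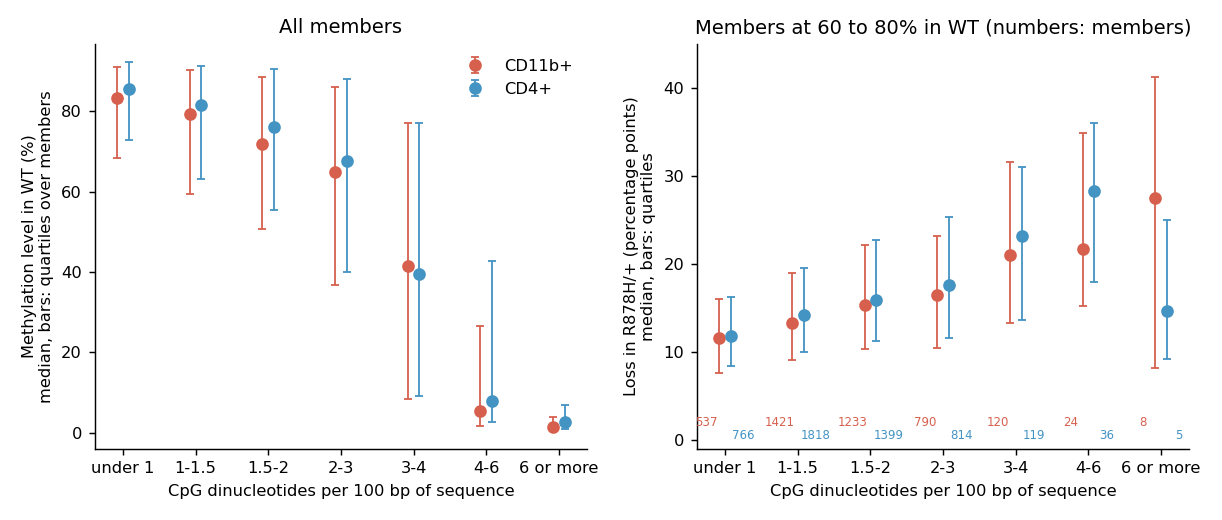
Left, WT methylation level of all members (vertical axis, %) and right, loss in R878H/+ of members between 60 and 80% in WT (vertical axis, percentage points), both by CpG dinucleotides per 100 bp of reference sequence (horizontal axis), as medians with quartile bars, CD11b+ in red and CD4+ in blue, with the number of members written at the foot of the right panel. The level falls and the loss rises with CpG content, the loss from 11.6 to 20.97 points in CD11b+ and from 11.8 to 23.2 points in CD4+ cells over the first 5 classes, while the last classes hold 8 and 5 members.

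The largest losses in CD11b+ cells were at genes of varied function. Gdf1, which encodes a ligand of the TGF-β superfamily, had a member at chr8:70330543-70330977, in untranslated exon and intron, that fell from 76.0% in WT to 12.9% in R878H/+. Nradd, a death-domain protein related to the p75 neurotrophin receptor, fell from 56.7% to 3.48% at chr9:110624118-110624832, across its start. These members ended near the unmethylated state, although the Gdf1 region had 12 listed cytosines for 30 CpG dinucleotides in its sequence. Osbpl1a, an oxysterol-binding protein relative, fell from 82.8% to 26.0% across its start. Efna1, the ligand ephrin-A1 of Eph receptors, fell from 85.6% to 33.4% in an intronic member whose sequence is shown above in part. Mafk, a small Maf protein that pairs with NF-E2 and Nrf2 subunits, fell from 60.6% to 8.90% at chr5:139796866-139797198. Zbed3 went from 71.4% to 19.2%, Msantd3 from 71.9% to 21.9%, Tmem88, a membrane protein that restrains Wnt signalling, from 75.6% to 25.8%, Pcbp4, an RNA-binding protein, from 86.1% to 37.2%, and Tmem204 from 82.9% to 34.5%. The losses of these 10 members ran from 48.4 to 63.1 points.

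In CD4+ cells the largest losses were at Clcn3 and Nradd. Clcn3, an endosomal chloride/proton exchanger, fell from 80.5% to 19.7% at chr8:60954863-60955171, within untranslated exon. Nradd fell from 78.4% to 18.1% at chr9:110624333-110625222. Apobr, the apolipoprotein B receptor of macrophages, fell from 90.9% to 36.9%, and Kiss1r, the kisspeptin receptor, from 73.4% to 19.9%. The Kiss1r and Nradd members span a start, and the Apobr one lies 7 bp from a start. Pde9a, a cGMP phosphodiesterase, went from 71.0% to 18.3%, Zmynd8, a reader of histone marks, from 71.1% to 18.9%, and Hk1, hexokinase 1, from 69.3% to 17.9%. Cend1, a neuronal cell cycle exit factor, went from 78.4% to 27.4%, Tiam1, an activator of Rac, from 79.8% to 29.8%, and Dcun1d1, a cullin neddylation factor, from 63.1% to 14.3%. The 10 losses ran from 48.8 to 60.8 points, and Nradd was the 1 gene among the 10 of both cell types.

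Some members kept full methylation. In CD11b+ cells Lrrc55, an auxiliary subunit of potassium channels, stood at 98.2% in WT and 96.8% in R878H/+, Dyrk4, a kinase, at 98.0% and 96.3%, and Msantd1 at 98.0% and 98.5%. In CD4+ cells Star, which carries cholesterol into mitochondria for steroid synthesis, stood at 98.9% and 97.6%, Iws1, a transcription elongation factor, at 98.6% and 97.2%, and Rasgrf2, an activator of Ras, at 98.2% and 97.1%. The Star member was 80.4% annotated repeat. Members with at least 50% of their bases in repeats numbered 789 in CD11b+ and 1075 in CD4+ cells, and 4.56% and 5.30% of them passed a loss of 20 points, against 12.8% and 13.6% of all members. These shares are not matched for starting level, since their WT medians were 82.15% and 85.8%, against 72.7% and 77.6% of all members. Between 60% and 80% in WT, the set of members with the most repeat had 17.3% and 18.1% past 20 points, against 27.2% and 28.9% of all members there.

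Dnmt3a itself had members in both tables, at several of its starts on chr12. In CD11b+ cells there were 4, and each was lower in R878H/+, from 86.6% to 79.0%, 56.1% to 43.8%, 91.2% to 82.2% and 93.3% to 78.0%. In CD4+ cells there were 7, all lower. The one at chr12:3861000-3862596, which spans a start, fell from 68.9% to 48.0%, and the other 6 lost between 2.91 and 11.8 points. The overlapping CD11b member, chr12:3861799-3862596, is the one that went from 56.1% to 43.8%.

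Gains were few, and most were found in CD11b+ cells at members that were unmethylated in WT. In CD11b+ cells 191 members, 1.08%, gained more than 10 points, against 0.609% of autosomal intervals and 5.25% of autosomal promoter regions, and 156 of them were under 10% in WT. In CD4+ cells 32 members, 0.152%, gained that much, against 0.179% and 0.398%, and 2 of these were under 10%. Among the CD11b members under 10% in WT, 19.1% of the 607 with 4.0 or more CpG dinucleotides per 100 bp gained more than 10 points, as did 4.78% of the other 836. Of the CD4 members under 10%, 1 of 424 and 1 of 818 did. Of the 191 gaining CD11b members, 121 held 4.0 or more CpG dinucleotides per 100 bp. The rule admits sequence that rich only where most of its CpG cytosines are not listed, so a low share listed there follows from the rule. In the members that gained, the median share of CpG cytosines listed was 26.3%, against 68.8% over all CD11b members. Over all CD11b members with 4.0 or more CpG dinucleotides per 100 bp, gaining or not, it was 23.8%. Whether the low share listed and the gain are linked was not tested. Of the 15 gaining CD11b members that had a partner in CD4+ cells, 1 gained more than 10 points there, and the median difference in CD4+ cells, R878H/+ minus WT, was -5.74 points.

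The largest gain in both cell types was in the first part of Vav1, a guanine nucleotide exchange factor of blood cells. Its intronic member, at chr17:57279430-57279938 in the CD11b table, rose from 1.96% in WT to 55.2% in R878H/+, and its counterpart in CD4+ cells rose from 4.30% to 42.3%. Vav1 regulatory sequence also drives the iCre transgene of the R878H/+ mice, and reads of the gene and of transgene copies cannot be told apart in these tables. Gspt1, translation termination factor eRF3a, rose from 0% to 46.2% in CD11b+ cells, in a member with 45 CpG dinucleotides in its sequence and 12 listed cytosines. Pik3ip1, an inhibitor of PI3K, rose from 0% to 40.7%, Sipa1, which restrains Rap1, from 3.17% to 43.6%, and Txnip, which binds thioredoxin, from 1.17% to 41.3%. In CD4+ cells the next gains were smaller and started higher. Rnf157, a ubiquitin ligase, rose from 26.5% to 50.02%, Vezf1, a zinc finger factor, from 42.4% to 62.6%, Satb1, a chromatin organizer of T cells, from 29.0% to 48.3%, and Trhde from 15.2% to 33.3%.

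Members of the 2 tables could be compared where their intervals overlapped by at least 50% of the shorter one, which gave 7837 pairs, 44.2% of CD11b and 37.2% of CD4 members. The ends of a pair differ in most cases, since 294 pairs had the same interval. The median loss over pairs was 11.8 points in CD11b+ and 12.4 points in CD4+ cells, and the R878H/+ mean was lower in both cell types in 7512 pairs. Over pairs, the differences of the 2 cell types had a Pearson r of 0.723 and a Spearman rho of 0.720, as a description over regions that share sequence and genotype. A loss above 20 points in both was found in 1049 pairs, which is 66.02% of the 1589 with that loss in CD11b+ cells and 58.5% of the 1794 with it in CD4+ cells. Among pairs, most losses of this size in one cell type were thus matched by one in the other. Over all 7837 pairs, a loss of this size was found in 1589 in CD11b+ and 1794 in CD4+ cells. Pairs also lost more than members as a whole, whose median losses were 8.92 and 9.38 points.

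The pair with the largest mean loss was Nradd, and it was followed by Osbpl1a, Cend1, Ica1 and Efna1. Osbpl1a went from 82.8% to 26.0% in CD11b+ and from 71.8% to 29.4% in CD4+ cells. Cend1 went from 72.6% to 31.2% and from 78.4% to 27.4%. Ica1, a protein of secretory vesicle membranes, went from 71.2% to 26.2% and from 79.7% to 32.9%. Efna1 in CD4+ cells went from 73.4% to 38.5%. At other pairs the cell types parted. Klhl18, a cullin adaptor, fell from 82.1% to 35.8% in CD11b+ cells and from 56.3% to 42.4% in CD4+ cells, and Dmkn, a skin protein, from 79.5% to 43.8% and from 92.8% to 87.6%. Ctsw, a cathepsin of cytotoxic lymphocytes, fell from 53.4% to 29.1% in CD11b+ cells, whereas in CD4+ cells it stood at 27.7% in WT and 29.1% in R878H/+. In the other direction Jdp2, a bZIP repressor, went from 9.77% to 3.33% in CD11b+ cells and from 57.3% to 18.2% in CD4+ cells. Fndc3b rose from 5.92% to 16.3% in CD11b+ cells and fell from 49.9% to 29.2% in CD4+ cells, and Nfix, a transcription factor, fell from 30.8% to 12.8% and from 70.7% to 23.2%. For Klhl18, Ctsw, Jdp2, Fndc3b and Nfix the WT level was already lower in the cell type with the smaller change. For Dmkn it was higher there.

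**Figure D4:**
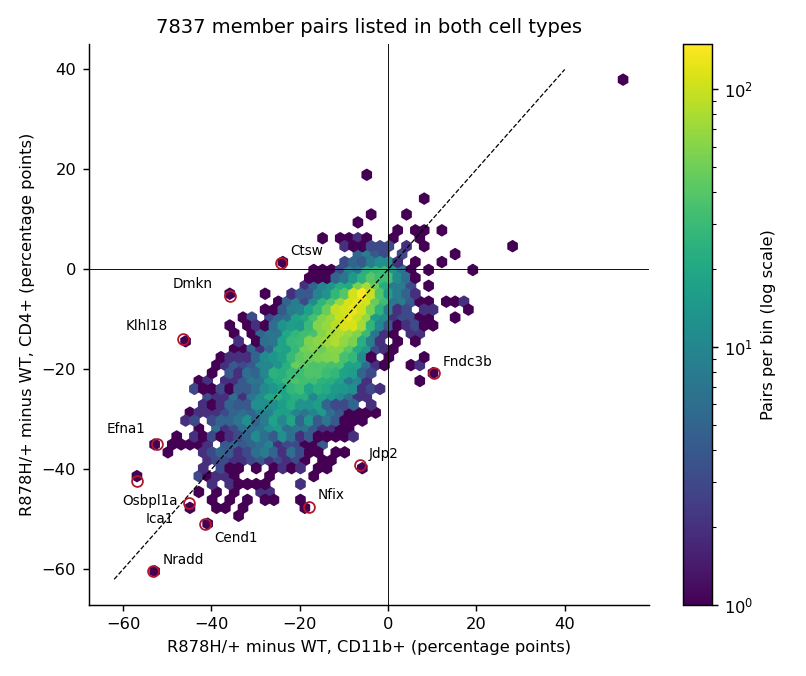
Difference in methylation level, R878H/+ minus WT, of the 7837 pairs of overlapping members in CD11b+ cells (horizontal axis, percentage points) and CD4+ cells (vertical axis, percentage points), coloured by pairs per bin on a log scale, with the named pairs circled and the dashed line at equal differences. Most pairs sit in the lower left quadrant, 7512 of 7837, and the isolated point at the upper right is Vav1.

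Genes that mark the sorted cells were looked at to check the labels. Of the 15 myeloid markers, 9 had a member in CD11b+ cells and 11 in CD4+ cells. They had 13 members in CD11b+ cells, with a median WT level of 52.6%, and 18 members in CD4+ cells, with 79.8%. Of the 15 CD4 T cell markers, 8 had a member in CD11b+ cells and 6 in CD4+ cells. They had 10 members in each, with median WT levels of 68.4% in CD11b+ and 51.1% in CD4+ cells. Both lists were thus less methylated in the cell type they mark, as medians over different sets of intervals. All 13 myeloid marker members were lower in R878H/+ CD11b+ cells, as were 93.3% of all CD11b members. Among them were Csf3r, the G-CSF receptor, from 58.9% to 26.5% and S100a8, a calgranulin, from 63.0% to 37.1%. Itgam, which encodes CD11b, stood at 79.4% and 78.8%. Of the 10 T cell marker members in CD11b+ cells 6 were lower, against the same 93.3%. The other 4 were Bcl11b from 2.10% to 36.7%, Tcf7 from 2.50% to 21.2%, a member of Zap70 from 80.02% to 87.8% and Cd3d from 71.8% to 72.7%. In CD4+ cells 8 of the 10 T cell marker members were lower, against 96.0% of all CD4 members. Cd3e, a subunit of the T cell receptor complex, rose from 27.4% to 38.2% and a member of Cd5 from 35.6% to 42.1%. B cell markers had 7 members in CD11b+ cells, with a median WT level of 48.4%, and 12 in CD4+ cells, with 59.7%. Their median in CD11b+ cells was thus below that of the myeloid markers, so a low median was not particular to markers of the sorted cells. Whether a different mix of cells in the sorted fractions moves with genotype was not tested.

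Among the 19 gene lists, which do not include the marker sets, genes of red cells and platelets had the highest share of members past 20 points. Of their 25 CD11b members 10 lost more than 20 points, 40% against 12.8% of all members, and of their 29 CD4 members 8 did, 27.6% against 13.6%. The myeloid marker set had 5 of 18 past 20 points in CD4+ cells, 27.8%. Tal1, a master regulator of early blood cells, went from 59.95% to 22.2% in CD11b+ and from 77.7% to 42.3% in CD4+ cells. Nfe2, the large subunit of NF-E2 in the platelet lineage, went from 72.5% to 36.1% and from 78.2% to 47.0%. The Nfe2 intervals of the cell types do not overlap. Epor, the erythropoietin receptor, went from 52.6% to 19.3% in CD11b+ cells. All 25 and all 29 were lower in R878H/+, as were 93.3% and 96.0% of all members. Their WT median was 63.5% in CD11b+ and 79.4% in CD4+ cells. Within 60% to 90% in WT, 41.7% of 12 CD11b members and 50% of 10 CD4 members passed 20 points, against 18.02% and 20.3% of all members in that range.

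For genes of the myeloid lineage the share past a loss of 20 points was near that of all members in CD11b+ cells, 10 of 76, 13.2% against 12.8%, and in CD4+ cells it was 17 of 87, 19.5% against 13.6%. Prtn3, the neutrophil protease proteinase 3, went from 63.8% to 27.9% in CD11b+ and from 67.5% to 33.5% in CD4+ cells, and Ltf, lactoferrin of neutrophil granules, from 55.6% to 39.5% and from 64.6% to 29.4%. The T cell list had 3 of 48 CD11b members past 20 points, 6.25% against 12.8% of all members, and 6 of 42 CD4 members, 14.3% against 13.6%. Prkcq, the kinase PKCθ of T cell receptor signalling, went from 45.3% to 20.4% in CD11b+ and from 72.1% to 36.6% in CD4+ cells. Cd27, a costimulatory receptor, went from 45.7% to 15.0% and from 29.8% to 18.2%, at intervals that do not overlap. The B cell list had 1 of 20 and 4 of 35 past 20 points, 5.0% and 11.4% against the same 12.8% and 13.6%, with Vpreb3, a pre-B cell receptor component, from 74.5% to 46.9% in CD11b+ cells and Cd22 and Cd79a from 65.2% to 39.5% and from 66.4% to 42.0% in CD4+ cells.

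The share of immune signalling members past 20 points ran from 11.6% to 16.2% over 5 lists in CD11b+ cells and from 7.89% to 20.8% in CD4+ cells, against 12.8% and 13.6% of all members. The genes named here are among those with the largest losses of each list, and the intervals given for a gene need not be the same in both cell types. For cytokine and chemokine receptors 15 of 94 CD11b members and 26 of 135 CD4 members lost more than 20 points, among them Il31ra, an interleukin-31 receptor chain, from 83.8% to 50.5% and Ccr6, the receptor of CCL20, from 76.3% to 45.4% in CD4+ cells. An overlapping interval of Ccr6 stood at 73.0% and 80.6% in CD11b+ cells. Cytokines and chemokines had 12 of 81, or 14.8%, and 14 members, or 12.3%, with Tnfsf12 (TWEAK) from 65.96% to 26.9% in CD11b+ and from 76.7% to 33.2% in CD4+ cells. Cxcl16, a chemokine of macrophages, went from 44.4% to 13.0% and Csf1, the macrophage growth factor, from 50.7% to 21.2% in CD4+ cells. Interferon-induced genes had 5 of 43 and 10 of 48, with the GTPase gene Gbp3 from 84.5% to 52.7% and Slfn9 from 72.3% to 41.6% in CD4+ cells and Ifitm1, an antiviral membrane protein, from 74.2% to 45.4% in CD11b+ cells. Toll-like receptor and inflammasome genes had 6 of 37 and 9 of 49, with Nod1, a sensor of bacterial cell walls, from 65.6% to 29.4% and Gsdme, a pore-forming gasdermin, from 65.0% to 34.4% in CD4+ cells, and Nlrx1 from 60.8% to 32.5% in CD11b+ cells. Genes of antigen presentation had 4 of 29 and 3 of 38, with the class II chain H2-Aa from 51.7% to 23.5% in CD11b+ and from 71.3% to 40.3% in CD4+ cells, the peptide transporter Tap1 from 79.1% to 49.8% in CD11b+ cells and the invariant chain Cd74 from 71.9% to 48.0% in CD4+ cells.

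The next lists are set against the same shares of all members past 20 points, 12.8% in CD11b+ and 13.6% in CD4+ cells. Lectin-like receptors had 6 of 39 CD11b members, 15.4%, and 5 of 49 CD4 members, 10.2%, with Clec1a from 64.0% to 24.2%, the endothelial lectin Clec14a from 72.0% to 39.7% and Olr1, the receptor of oxidized LDL, from 66.1% to 34.0% in CD11b+ cells. Immunoglobulin-like and Fc receptors had 2 of 30 and 7 of 48, 6.67% and 14.6%, with Sirpa, the myeloid receptor of CD47, from 57.0% to 27.0%, Cd300c2 from 52.0% to 24.1% and Cd200r3 from 65.0% to 38.6% in CD4+ cells. The list named for defensins and antimicrobial peptides had 6 of 61 and 15 of 96, 9.84% and 15.6%. Its name patterns took in all S100a genes, among them S100a11, a calcium-binding protein that need not be antimicrobial. In CD4+ cells S100a11 went from 76.0% to 41.0%, Rnase6 from 56.9% to 24.1% and Ang, angiogenin, from 58.9% to 26.1%.

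Genes of sense organs stood at the other end. Olfactory, vomeronasal and taste receptor genes had 300 CD11b members and 471 CD4 members, with median levels of 86.9% and 87.3% in WT and median losses of 5.93 and 6.62 points. A loss above 20 points was found in 1 of the 300, at the taste receptor gene Tas1r1 (69.8% to 44.95%), and in 2 of the 471, at Olfr156 (79.4% to 57.0%) and Olfr750 (67.6% to 46.2%). Within 60% to 90% in WT, 0.524% of 191 and 0.660% of 303 passed it, against 18.02% and 20.3% of all members. That range does not match the starting levels, since the lower quartiles of these genes in WT were 81.8% and 82.9%. Of all members between 80% and 90% in WT, 6.48% in CD11b+ and 10.1% in CD4+ cells passed 20 points. Between 60% and 80% the shares were 27.2% and 28.9%. Many of these genes lie in clusters and some have close copies, at which reads may be assigned with uncertainty. Their median GC content was 43.5% and 42.9%, against 47.7% and 47.3% of all members. Whether copies, GC content or the starting level bear on the small loss was not tested.

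The remaining lists ran from 6.38% to 14.1% past 20 points in CD11b+ cells and from 4.69% to 13.2% in CD4+ cells, against 12.8% and 13.6% of all members. Keratins and skin barrier genes had 3 of 47 CD11b and 3 of 64 CD4 members past 20 points, with Krt8 from 74.1% to 38.5% in CD4+ cells and Krt80 from 57.2% to 24.3% and Krt24 from 61.4% to 32.8% in CD11b+ cells. Proteases and their inhibitors had 25 of 177 and 30 of 245, with the matrix protease Mmp14 from 74.3% to 26.7% in CD11b+ cells and the collagen chaperone Serpinh1 from 67.3% to 21.2% and Prss8 from 58.5% to 19.9% in CD4+ cells. The list named for liver and drug metabolism had 17 of 168 and 28 of 220. Its name patterns also took in Apobr and Apobec3, a restriction factor of retroviruses that fell from 73.7% to 31.9% in CD4+ cells, and neither is a gene of liver metabolism. The dehydrogenase gene Aldh7a1 went from 48.9% to 12.1% in CD11b+ cells. Ion channels and solute carriers had 90 of 677 and 105 of 794, 13.3% and 13.2%, with Slc22a3, an organic cation transporter, from 79.9% to 32.5% and Slc7a7, an amino acid transporter, from 61.3% to 16.5% in CD4+ cells. Zinc finger genes had 34 of 353 and 54 of 454, with Zfp503 from 66.5% to 24.7%, Zfp532 from 76.5% to 35.1% and Zscan2 from 77.5% to 40.5% in CD11b+ cells. The list named for germline and meiosis had 29 of 239 and 32 of 298. Its name patterns also took in the Ccdc genes, which are named for a coiled-coil domain and not for the germline. In CD11b+ cells Ccdc194 went from 78.6% to 39.8% and Spag9, a kinase scaffold made in many tissues, from 71.4% to 33.2%. Ccdc171 went from 64.3% to 28.4% in CD4+ cells.

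**Figure D5:**
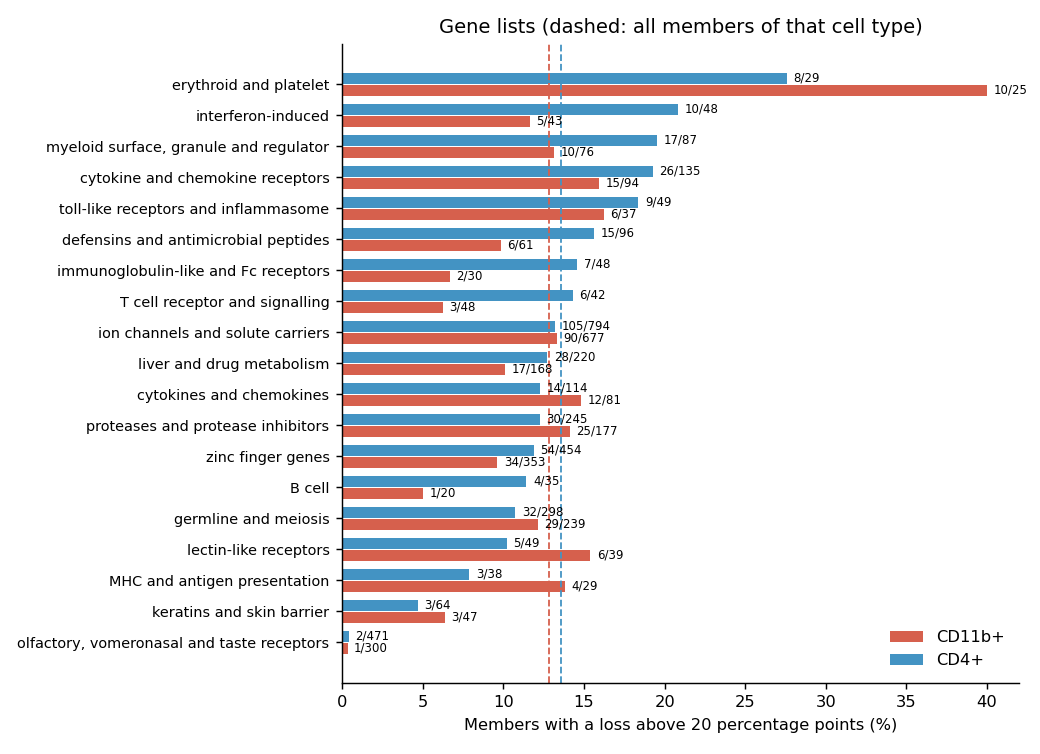
Share of members with a loss above 20 points (horizontal axis, %) for each of 19 gene lists (vertical axis), CD11b+ in red and CD4+ in blue, with the members past 20 points over all members of the list beside each bar and dashed lines at the share of all members, 12.8% and 13.6%. Red cell and platelet genes stand highest, with 40% and 27.6%, and olfactory, vomeronasal and taste receptor genes lowest, with 1 of 300 and 2 of 471.

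The promoter windows of genes with members were also searched for short motifs, in the stretch from 250 bases before to 50 after each RefSeq start (GRCm38.p6), on both strands. TATAAA, the TATA box, was found in 9.26% of 10571 windows of genes with a CD11b member and 9.88% of 11757 windows with a CD4 member, against 12.1% of 19174 autosomal windows. GGGCGG, the GC box, was found in 53.0% and 51.7%, against 48.3%. At genes whose members lost more than 20 points the GC box was in 55.3% of 2250 windows and 56.8% of 2737, and the TATA box in 8.76% and 8.04%. CCAAT was found in 32.5% and 31.7% of those windows, against 37.5% of all, and GAGGAAGT, a PU.1 motif, in 2.93% and 3.11%, against 3.14%. The median CpG density of these windows was 5.00 per 100 bp in both cell types, against 4.67 over all windows. The windows of genes whose member spans a start and stood at 80% or more in WT had 3.00 and 2.67 CpG dinucleotides per 100 bp, and TATAAA in 11.8% and 13.2%.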

How the data were processed

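Whole-genome bisulfite libraries of CD11b+ and CD4+ cells of WT and R878H/+ mice were mapped by the authors to mm10 with BISCUIT, and the methylation ratios were cut into regions with metilene, whose version and run settings are not given in the sources used here, nor is a minimum coverage. The criteria of the study for differentially methylated regions (number of CpGs, difference and false discovery rate) were not applied to choose members. FastQC is named in the submitters' processing notes. As deposited, each table gives, in percent, 1 mean methylation level per genotype and region, pooled over mice, and the number of cytosines listed. Its other columns hold the authors' comparison (a difference, p-values and q-values) and were not used. The tables have no header and do not name the genotype of each mean, and the first of the paired means was taken as WT. Read depth is unknown, so no interval or test across mice was made.

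Starts were those of protein-coding transcripts in GENCODE M21, with a window of 1000 bp and a threshold of 0.04 listed cytosines per bp. Sequence, GC content and repeats were read from GRCm38. Members of both tables were paired at an overlap of 50% of the shorter region. Named members were the 10 largest losses, the 5 largest gains and the 3 with the highest WT level and a difference under 2 points per cell type, the 5 pairs with the largest mean loss, the 3 with the largest difference each way, and the 3 genes with the largest loss per gene list. Dnmt3a, as the mutated gene, and the cell type markers were added. One gene that this rule named is not reported here. The members and lists were chosen with earlier results of these data known. Python 3.11.15, pandas 2.3.3 and numpy 2.4.6 were used, and the interval code was tested on simulated data.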

Additional observations from a re-analysis of the deposited data

How the results depend on the processing

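No paired analysis was possible because the tables hold group means and no value per mouse, and for the same reason no replicate could be left out in turn. Of 80 alternatives 18 moved a value by less than the spread set for it, 60 moved it by more and 2 turned its sign, and the cause was not tested. For medians and shares this spread came from 95% intervals over regions, counted as if they were independent. With so many regions it is narrow, and it does not measure the spread across mice. A count of members was held to a fixed ratio instead. The median difference, R878H/+ minus WT, stayed below 0 in each alternative. Values are given for the CD11b and then the CD4 table. With starts within 500 bp there were 10231 and 11986 members, median differences of -8.50 and -9.00 points and 91.4% and 95.1% lower. Within 2 kb there were 29274 and 35353, with -8.60 and -8.92 points, 94.5% and 96.6% lower and 12.2% and 12.4% past a loss of 20 points. Under 0.03 listed cytosines per bp 94.6% and 96.8% were lower and 12.3% and 12.5% past 20 points. Under 0.05, 92.3% and 95.3% were lower and the CD11b difference was -8.78. Under 0.02 CpG dinucleotides per bp of sequence 96.8% and 97.5% were lower, 11.4% and 12.0% were past 20 points, and the CD11b difference was -9.22. With more than 10 listed cytosines there were 7762 and 9829 members, 95.8% and 97.3% lower and 15.3% and 15.4% past 20 points, with -9.39 points for CD11b. Weighted by listed cytosines the differences were -9.27 and -9.68, with 93.9% and 96.3% lower and 14.3% and 15.3% past 20 points. With 1 region per gene there were 10578 and 11889, 91.9% and 95.6% lower and 12.2% and 13.0% past 20 points, with -8.69 for CD11b. A loss above 10 points was reached by 44.3% and 46.4%, and above 30 points by 2.76% and 3.11%. The minimum of 10 listed cytosines and the unknown depth limit every value.

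The median loss of members minus that of other promoter regions, 5.35 and 2.98 points, turned to -3.29 and -3.60 between 60% and 80% in WT, and was 1.12 and 1.18 between 80% and 100%. The next alternatives were chosen after seeing the data. With the starts of any transcript there were 27522 and 32733 members, differences of -8.0 and -8.32 points, and 11.2% and 11.4% past 20 points. At an overlap of 80% of both regions the median losses of pairs were 12.5 and 13.1 points.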

Other observations

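Members of the same gene could differ in loss, and the genes named for this were chosen after their values were seen. In CD11b+ cells 1290 of the 4365 genes with 2 or more members had one with a loss above 20 points, and 879 of these, 68.1%, also had a member with a loss under 10 points. For CD4+ cells it was 1163 of 1660, 70.1%, among 5230 genes. A loss above 10 points was reached by only 44.3% of all CD11b members and 46.4% of all CD4 members. A member under 10 points is therefore common at any gene with several members. Rreb1, a zinc finger factor of Ras signalling, had 10 CD11b members, of which 5 lost more than 20 points, and its losses ran from 1.25 to 41.4 points. Zmynd8 had 13 CD4 members, of which 6 passed 20 points, with losses from 5.79 to 52.2 points. Adgrg1, an adhesion receptor, Mef2c, a transcription factor of lymphoid and other cells, Cxcr5, a chemokine receptor of B cells and follicular helper T cells, and Plec, plectin, each had 5 CD4 members past 20 points.

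Pairs in which the WT levels of the cell types stood 20 points or more apart lost methylation in both. In the 752 pairs with the lower level in CD11b+ cells, the median went from 43.6% in WT to 27.6% in R878H/+ there and from 73.0% to 54.1% in CD4+ cells. In the 322 pairs with the lower level in CD4+ cells, it went from 42.4% to 28.1% there and from 72.9% to 57.4% in CD11b+ cells.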
